A study of Drosophila melanogaster with 6 samples.

Results

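Nplp1, Nplp2, Nplp3 and Nplp4 are the Drosophila genes named neuropeptide-like precursor. They were found on the array by their gene symbols, 1 probe set each, so 4 of 18769 tested probe sets and 4 of 11982 genes named by a single symbol. The members were selected on a measured value, the lower level of Nplp1 after depletion of ROW, together with the shared gene name. The difference of Nplp1 and those of the other members in the same comparison are therefore descriptions, given without a test.

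Total RNA was hybridized to Affymetrix Drosophila Genome 2.0 arrays, with 3 arrays for ROW RNAi cells and 3 for control cells. Both groups are S2 cells, an embryonic fly line that grows in culture and resembles hemocytes, the circulating blood cells. In the ROW RNAi cells, soaking in double-stranded RNA for 96 h targeted ROW, a zinc finger partner of the chromatin protein HP1c. Control cells are called wild type, with no double-stranded RNA mentioned for them in the labels, so loss of ROW and exposure to double-stranded RNA cannot be told apart. Nothing in the labels says that replicates are separate cultures, so errors and p-values reflect array-to-array spread that may be technical only. The cells were measured in bulk, and fewer cells of a type and less RNA per cell cannot be told apart.

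A neuropeptide is cut from a longer precursor in the secretory pathway. Prohormone convertases cleave the precursor, carboxypeptidases trim the ends, many peptides are then amidated, and dense core vesicles release them. Nplp1 encodes a precursor of several peptides, among them IPNamide, MTYamide and VQQ, and the receptor guanylate cyclase Gyc76C is a known receptor for VQQ. In the fly nerve cord Nplp1 marks a small set of neurons, where the transcription factors Apterous, Eyes absent, Collier (gene kn) and Dimmed switch it on. The Nplp2 peptide was also described in hemolymph as an immune-induced molecule, and the gene carries that name among its synonyms. Nplp3 and Nplp4 were named from peptides found in the fly nervous system. Nplp1 lies on chromosome arm 2R, Nplp2 and Nplp3 on 3L and Nplp4 on 2L.

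The row transcript checked the depletion. Its brightest probe set read 9.04, 8.91 and 8.91 in ROW RNAi replicates 1, 2 and 3, against 10.44, 10.60 and 10.54 in the control replicates (RMA values on the log2 scale). It fell by 1.58 (SE 0.07, limma adjusted p = 0.0023), and the other row probe sets had log2 fold changes of −2.61 and −2.66 (adjusted p = 0.0018 and 0.0017). Across all 6 arrays, array pairs correlated with r between 0.987 and 0.998 over probe sets, which are not independent replicates. ROW RNAi replicate 1 stood farthest out on the first principal component, with a score of 42.7, while ROW RNAi replicates 2 and 3 scored −19.5 and 20.8 and the controls −3.69, −26.5 and −13.7.

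The background level used below is 3.39 on the log2 scale, set at the 95th percentile of the values of 17 tag controls, which are directed at artificial sequences. This 1 level served all arrays. The tag control medians were 2.34, 2.91 and 2.54 in ROW RNAi replicates 1, 2 and 3, against 2.64, 2.84 and 2.82 in the control replicates. Whether a dim gene lies above the level can therefore depend on the array. In all 6 arrays, 70.3% of the tested probe sets lay above it. Of the members, Nplp1 and Nplp2 lay above it on all 6 arrays. Nplp4 straddled it and Nplp3 lay mostly below it, so 3 of 4 members were above background in all arrays of at least 1 group. The mean over all 6 arrays was above the median of all probe sets for 2 of 4, Nplp1 and Nplp2. Nplp1 itself lay below the array medians (4.88 to 5.04) on the ROW RNAi arrays and above them on the controls.

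Nplp1, the precursor of IPNamide and MTYamide, read 4.44, 4.67 and 4.29 in ROW RNAi replicates 1, 2 and 3, against 5.64, 5.56 and 5.71 in control replicates 1, 2 and 3. Every ROW RNAi array was lower than every control array, and the groups did not overlap. The lowest control array lay 0.89 above the highest ROW RNAi array, while values ranged over 0.38 among ROW RNAi arrays and over 0.15 among controls. The means were 4.47 ± 0.19 in ROW RNAi and 5.64 ± 0.08 in control (log2 ± SD, n = 3 arrays each).

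The log2 fold change of Nplp1 was −1.17 (moderated SE 0.11), which left 44.5% of the control value. It ranked as the 22nd lowest of the 18769 log2 fold changes. Nplp1 stayed above background after depletion, by 1.07 on average in ROW RNAi against 2.24 in control. That level is a low bar, which 70.3% of the tested probe sets exceeded on all 6 arrays. The log2 fold change lay between −1.27 and −1.08 when any array was left out.

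Nplp2, the gene of the immune-induced hemolymph peptide, was far above background in both groups. It read 11.65, 11.57 and 11.86 in ROW RNAi replicates 1, 2 and 3, against 11.55, 11.42 and 11.40 in the control replicates. The groups did not overlap, but the lowest ROW RNAi array lay only 0.02 above the highest control array, less than the range within either group (0.29 in ROW RNAi and 0.16 in control). The log2 fold change was 0.23 (SE 0.09), or 1.18-fold. Leaving out an array moved it between 0.15 and 0.30, with the lowest value without ROW RNAi replicate 3.

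Nplp3 read 3.80, 3.28 and 3.09 in ROW RNAi replicates 1, 2 and 3, against 2.64, 2.50 and 3.02 in the control replicates. ROW RNAi replicate 1 alone was above background, and all 3 controls were below it. The groups did not overlap, with 0.07 between the lowest ROW RNAi and the highest control array. The difference of the means was 0.67 on the log2 scale (SE 0.22), and 0.46 without ROW RNAi replicate 1. Since the means of both groups lay at or below background, no linear fold is given.

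Nplp4 read 3.93, 3.76 and 3.56 in ROW RNAi replicates 1, 2 and 3, against 3.71, 3.38 and 3.63 in the control replicates. The groups overlapped, and 5 of the 6 arrays were above background, all of ROW RNAi and control replicates 1 and 3. The log2 fold change was 0.18 (SE 0.13). A further probe set carries the symbols of both Nplp4 and CG4238 and does not count as a member. It read 3.15, 3.49 and 3.36 in ROW RNAi arrays, against 3.66, 3.41 and 3.53 in controls, a log2 fold change of −0.20 (SE 0.11) with overlapping groups. Its sign was opposite to that of the Nplp4 probe set.

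**Figure D1:**
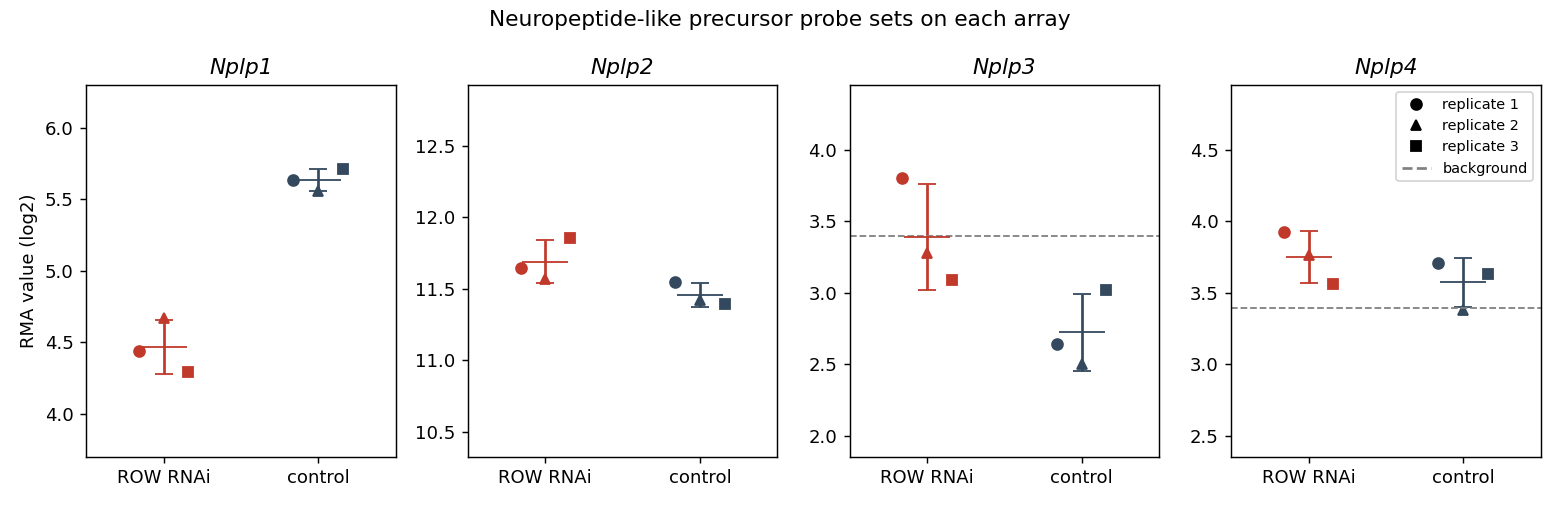
RMA values (log2) of the 4 members on each array, ROW RNAi left and control right; bars are the mean ± SD of 3 arrays, marker shapes give the replicate, and the dashed line is the background of 3.39. Each panel has its own axis of equal span; the line lies below the panels of Nplp1 and Nplp2. Nplp1 shows a gap of 0.89 between the groups, and Nplp3 crosses background on ROW RNAi replicate 1 alone.

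Among the members, Nplp1 was therefore the 1 with a lower value in ROW RNAi, and the other 3 had positive differences. No calls are counted among the members, since the same comparison chose them. The fit called 1.16% of all probe sets at an adjusted p of 0.05. Groups did not overlap for 3 of the 4 members, against 21.4% of all probe sets. Nothing is read from this share for the same reason. Across the 6 arrays Nplp3 and Nplp4 correlated with each other at r = 0.82, and both were highest on ROW RNAi replicate 1. Nplp1 correlated with Nplp2, Nplp3 and Nplp4 at −0.85, −0.73 and −0.43. These r values are descriptions over 6 arrays that share the group difference.

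**Figure D2:**
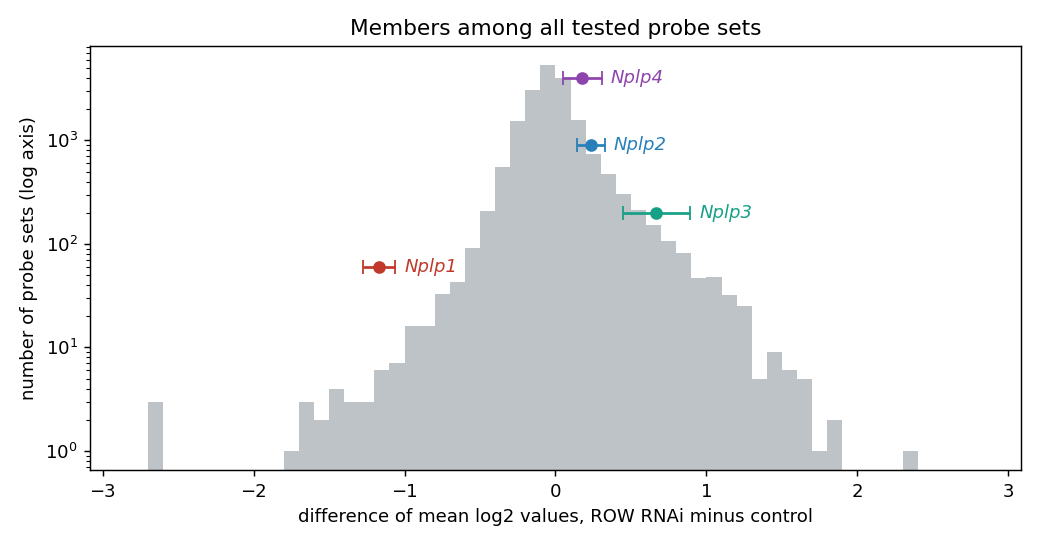
Histogram of the differences of mean log2 values (ROW RNAi minus control) of all 18769 tested probe sets, with the count on a log axis; coloured points are the members with bars of ± 1 SE, and their height has no meaning. Nplp1 at −1.17 stands in the sparse lower tail, and Nplp2, Nplp3 and Nplp4 lie at 0.23, 0.67 and 0.18, where both means of Nplp3 are at or below background.

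The genes next to each member were compared to see whether the difference of Nplp1 was shared along the chromosome. On one side of Nplp1 lies uzip, which encodes an adhesion protein of axon guidance. It read 10.41, 10.40 and 10.40 in ROW RNAi replicates, against 10.34, 10.36 and 10.41 in the control replicates, and the difference of 0.03 did not pass (SE 0.04, limma adjusted p = 0.76). On the other side gsb-n, a Pax family transcription factor gene, was below background on all 6 arrays. Both are direct neighbours of Nplp1 in the reference gene table.

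The measured neighbours of the other members were SNCF and CG17687 for Nplp2, CG13062 and CG13041 for Nplp3, and CG15353 and CG4238 for Nplp4, with up to 6 unmeasured genes in between. None of the 8 neighbours passed the test (limma adjusted p from 0.18 to 1.0, with 2 at an unadjusted p under 0.05), where 1.56% of genes passed and 15.1% had an unadjusted p under 0.05. The smallest adjusted p was that of CG4238, which read 3.76, 3.77 and 3.96 in ROW RNAi arrays, against 4.38, 4.12 and 4.16 in controls (log2 fold change −0.39, SE 0.10, adjusted p = 0.18). CG4238 and the probe set it shares with Nplp4 thus had the same sign.

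Among 9654 genes above background, those with the pattern most like Nplp1 across the 6 arrays were CG3323, CG7997, Sp7, CG8034 and Agpat2, with Pearson r between 0.996 and 0.999 and Spearman rho of 1 for each. CG3323 came nearest in size as well. It read 5.80, 5.99 and 5.62 in ROW RNAi replicates, against 6.84, 6.76 and 6.87 in the control replicates, a difference of −1.02 (SE 0.10). The others differed less, with −0.25 for CG7997, −0.39 for Sp7, a serine protease gene of melanization, −0.37 for CG8034 and −0.33 for Agpat2, which encodes an acyltransferase of phospholipid synthesis. In all 5, as in Nplp1, ROW RNAi replicate 2 was the highest of its group and replicate 3 the lowest. The 5 were picked by r with Nplp1 over these same arrays, so the shared order is no separate finding. The row probe sets correlated with Nplp1 at r between 0.974 and 0.991. Every r here rests mainly on the difference between the groups.

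**Figure D3:**
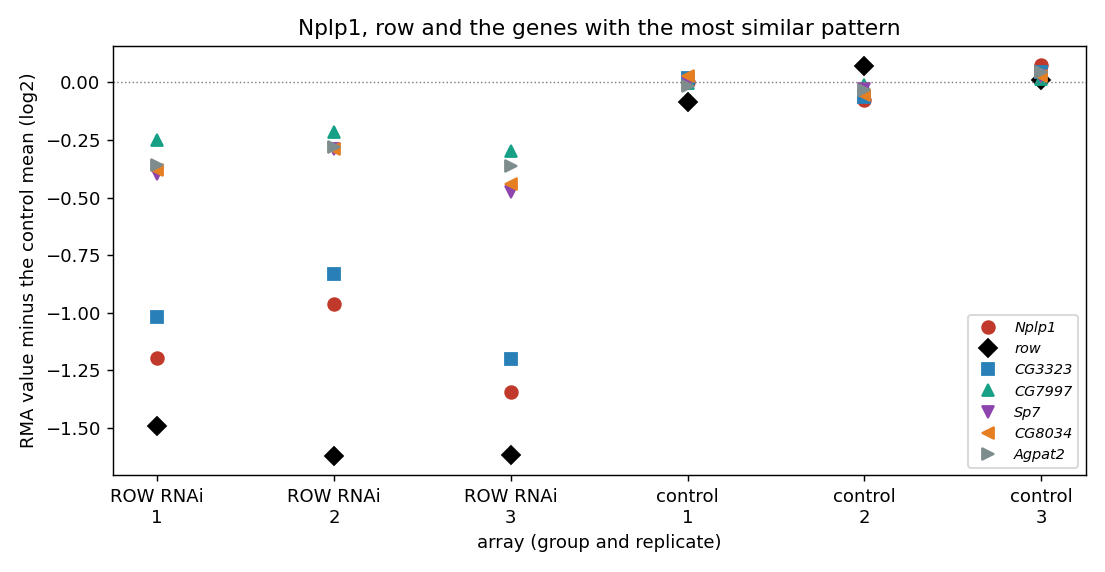
RMA value minus the mean of the controls (log2) on each array for Nplp1, the brightest row probe set and the 5 genes most like Nplp1, ROW RNAi left and control right. Nplp1 and CG3323 lie near −1 on the ROW RNAi arrays, the other 4 genes between −0.25 and −0.39 on average, and row at −1.58 on average.

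The pathway around the peptides was described with 6 lists, 113 of whose 148 genes were measured by the brightest probe set of each gene. In limma 0 of the 113 passed at an adjusted p of 0.05 in either direction, against 1.56% of all genes, and 14 had an unadjusted p under 0.05, as did 15.1% of all genes. The smallest adjusted p was 0.060. The median log2 fold change over the 113 was −0.05, and −0.03 over all genes. Without ROW RNAi replicate 2, 5 of the 113 passed, and 3.1% of all genes did. These were AstC (1.63) and Sytbeta (0.60), which were higher, and ey (−0.64), Pdf (−0.44) and Proc (−0.40), which were lower (adjusted p from 0.039 to 0.049).

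Of the other neuropeptide and peptide hormone precursors, 34 of 45 were measured, and 23 lay above background on all 6 arrays. Their median log2 fold change was −0.08, with 22 below 0, and 60.2% of all genes were below 0. AstC, which encodes the inhibitory peptide allatostatin C, had the highest at 1.00 (SE 0.55, adjusted p = 0.47). It read 5.32, 3.44 and 5.32 in ROW RNAi replicates 1, 2 and 3, against 3.92, 3.28 and 3.87 in the control replicates. ROW RNAi replicate 2 lay among the controls, and the groups overlapped. AstCC, its paralogue, read 6.06, 4.18 and 5.41 in ROW RNAi replicates, against 4.61, 4.53 and 4.35 in the control replicates, and also overlapped (0.72, SE 0.47, adjusted p = 0.53).

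Some precursor genes were well above background, here named after their values were seen. ITP, which encodes an ion transport peptide, averaged 10.90 in ROW RNAi and 11.08 in control, a log2 fold change of −0.18 (SE 0.04, adjusted p = 0.17). ETH, the gene of ecdysis-triggering hormone, gave −0.21 (SE 0.08, adjusted p = 0.35). Neither passed the test in the main fit. The groups of ITP did not overlap, as those of 21.4% of all probe sets. ITP passed when only probe sets with a mean above the median were tested (limma adjusted p = 0.031). It also passed with trend and robust variance (adjusted p = 0.015), and in no other alternative.

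The regulators that set the identity of Nplp1 neurons held no gene past the threshold among 13 measured of 15 listed, with a median of 0.02. Of the factors that act on Nplp1 most directly, also named with their values known, eya was below background on all 6 arrays, and kn was above it on ROW RNAi replicate 1 alone. The genes ap and dimm were above background on all 6 arrays, with log2 fold changes of 0.19 (SE 0.12, adjusted p = 0.51) and 0.02 (SE 0.16, adjusted p = 0.96). The largest positive change was that of the Hox gene Antp, 1.60 (SE 1.03, adjusted p = 0.53). It read 6.90, 3.51 and 6.36 in ROW RNAi replicates, against 5.14, 2.89 and 3.93 in the control replicates. The arrays of each group spread over more than the difference between the groups. The Pax6 gene ey gave −0.48 (SE 0.15, adjusted p = 0.28), with 3.79, 4.33 and 3.89 in ROW RNAi replicates and 4.46, 4.60 and 4.37 in the control replicates, which did not overlap.

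Enzymes that cut and modify precursors had log2 fold changes between −0.25 and 0.06 in the 14 measured of 15 listed, with a median of −0.03. The listed genes above background with the largest changes were the signal peptidase subunit gene Spase22-23 (−0.08, SE 0.08, adjusted p = 0.68) and svr, which encodes carboxypeptidase D (−0.07, SE 0.10, adjusted p = 0.76). Peptides are amidated by the enzymes of Phm and the Pal genes in turn. Phm averaged 12.39 in ROW RNAi and 12.42 in control, and Pal1 10.91 in ROW RNAi and 10.96 in control (adjusted p = 0.76 and 0.71). The convertase gene amon was below background on all 6 arrays, and its relative Fur2 averaged 11.23 in ROW RNAi and 11.22 in control (adjusted p = 0.96). Phm, Pal1, amon and Fur2 were named for their roles, with their values known.

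In the dense core vesicle and regulated secretion list, 16 of 20 genes were measured and had a median of 0.02. Cadps, which encodes the vesicle priming factor CAPS, came closest to the threshold. It read 7.78, 7.89 and 7.72 in ROW RNAi replicates, against 7.15, 7.25 and 7.39 in the control replicates, a log2 fold change of 0.53 (SE 0.08, adjusted p = 0.060). The groups did not overlap, and the call changed with the processing. Cadps passed with cyclic loess (adjusted p = 0.041), with filters on dim probe sets (0.018 and 0.039) and with trend and robust variance (0.011). In the other 10 of 14 alternatives it did not pass. The adjusted p was 0.20 with median centring, 0.12 unmoderated, 0.063 with array weights and 0.17 with a replicate block. With 1 array left out it ran from 0.060 to 0.26. A dimmer Cadps probe set had the opposite sign (−0.42, adjusted p = 0.45). Syt7, a synaptotagmin gene, was below background in every control and above it on 2 ROW RNAi arrays (difference 0.47 on the log2 scale, SE 0.34, adjusted p = 0.57).

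Guanylate cyclases and cyclic GMP effectors had 11 of 13 genes measured, a median of −0.02 and log2 fold changes between −0.17 and 0.27. The VQQ receptor gene Gyc76C is not analysed here, since no probe set carried its symbol alone. The largest changes were those of Pde6, a phosphodiesterase gene (0.27, SE 0.28, adjusted p = 0.69), and Pkg21D, a cyclic GMP-dependent kinase gene (0.19, SE 0.21, adjusted p = 0.70). Pde6 was above background on 2 ROW RNAi arrays and 1 control array, and Pkg21D on 1 of each group. Of 40 peptide hormone receptors, 25 were measured, with a median of −0.08. The short neuropeptide F receptor gene sNPF-R gave 0.86 (SE 0.63, adjusted p = 0.57), with 6.18, 3.62 and 5.04 in ROW RNAi replicates and 4.36, 3.81 and 4.10 in the control replicates, which overlapped. NPFR, the neuropeptide F receptor gene, gave −0.40 (SE 0.12, adjusted p = 0.25).

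**Figure D4:**
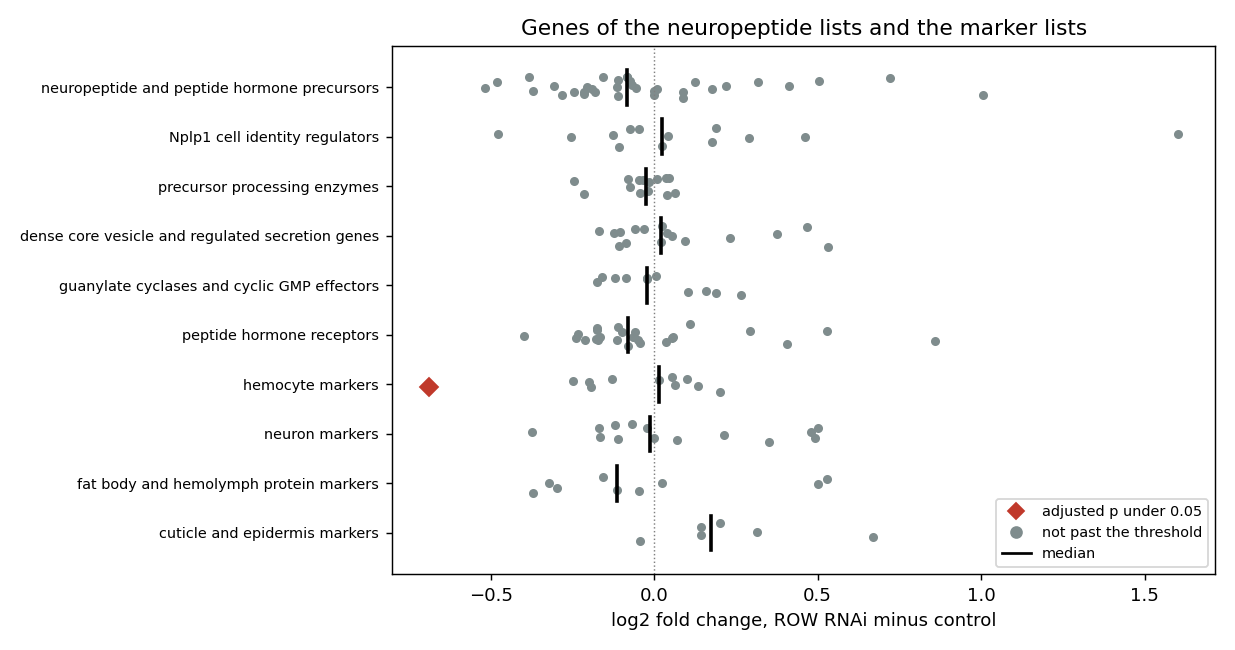
Log2 fold changes (ROW RNAi minus control) of the measured genes of the 6 neuropeptide lists and the 4 marker lists, 1 point per gene, with the median of each list as a black line; vertical scatter has no meaning. Red diamonds passed at an adjusted p of 0.05, and He at −0.69 is the single one.

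Marker lists of 4 cell types were measured on the same arrays. All 11 hemocyte markers, such as Hml and srp, were above background on all 6 arrays. He, which encodes the hemocyte surface protein hemese, was the 1 hemocyte marker past the threshold. Of all genes, 1.02% passed with a lower value in ROW RNAi. It fell to 11.00, 10.90 and 11.02 in ROW RNAi replicates, against 11.65, 11.62 and 11.72 in the control replicates (log2 fold change −0.69, SE 0.06, adjusted p = 0.010). Of the 11, 6 had a log2 fold change above 0, where 60.2% of all genes were below 0, and the median was 0.02. An unadjusted p under 0.05 was found for 5, and for 15.1% of all genes. Groups did not overlap for 21.4% of all probe sets. The phagocytosis receptor gene eater (0.20, adjusted p = 0.25) and ush, which encodes a GATA factor partner (0.10, adjusted p = 0.46), were named after their values were seen. Both were higher in every ROW RNAi array than in every control array, and neither passed. NimC1 (−0.25, adjusted p = 0.25) and Pxn (−0.20, adjusted p = 0.19) were lower in every ROW RNAi array than in every control array. So were vkg (−0.19, adjusted p = 0.21) and Col4a1 (−0.13, adjusted p = 0.37), also named with their values known, and none of these passed in the main fit. Pxn passed when only probe sets with a mean above the median were tested (adjusted p = 0.046) and with trend and robust variance (0.013). Of the 5 with an unadjusted p under 0.05, eater alone was higher. The call on He was lost when any array other than ROW RNAi replicate 2 was left out (adjusted p from 0.051 to 0.078).

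Of 14 measured neuron markers, 11 were above background on all 6 arrays and 0 passed. An unadjusted p under 0.05 was found for 3, and for 15.1% of all genes. The median log2 fold change was −0.01, with 8 below 0, where 60.2% of all genes were below 0. The 3 were futsch (−0.37, adjusted p = 0.33), brp (−0.16, adjusted p = 0.26) and nSyb (−0.17, adjusted p = 0.35), named after their values were seen, and all had negative values. The list's mean level was 5.52, 4.97 and 5.21 in ROW RNAi replicates 1, 2 and 3, against 5.25, 5.11 and 5.10 in the control replicates. The glutamate decarboxylase gene Gad1 was below background on all 6 arrays. The neuron markers with the largest changes were Rdl, a GABA receptor gene (0.50, SE 0.32, adjusted p = 0.52), and fne (0.49, SE 0.36, adjusted p = 0.57). The mean neuron level was highest on ROW RNAi replicate 1, where Nplp3 and Nplp4 were also highest, while Nplp1 was lower on all 3 ROW RNAi arrays. ROW RNAi replicate 1 also had the highest median over all probe sets (5.04) and the highest mean of the cuticle and epidermis markers (4.13). The part of the neuron markers in the members' values was not tested.

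Of the 13 cuticle and epidermis markers, 6 were measured and 3 were above background on all 6 arrays. Their mean level was 4.13, 3.65 and 3.91 in ROW RNAi replicates, against 3.75, 3.62 and 3.60 in the control replicates, and 0 passed (0 at an unadjusted p under 0.05). TwdlT and Cpr49Ae, both cuticle protein genes, had differences of 0.67 (SE 0.33, adjusted p = 0.43) and 0.32 (SE 0.41, adjusted p = 0.74) on the log2 scale. TwdlT was above background on 2 ROW RNAi arrays and 0 control arrays, and Cpr49Ae on 2 ROW RNAi and 3 control arrays. The median of the 6 was 0.17, with 5 above 0, where 60.2% of all genes were below 0. Of 9 measured fat body and hemolymph protein markers, 6 were above background on all 6 arrays and 0 passed. An unadjusted p under 0.05 was found for 4 of the 9, and for 15.1% of all genes. The median of the 9 was −0.11, with 6 below 0. The lipophorin gene apolpp gave 0.53 (SE 0.18, adjusted p = 0.30) and Fbp2 gave 0.50 (SE 0.22, adjusted p = 0.39), with apolpp above background on 3 ROW RNAi arrays and 1 control array. Negative values, named after they were seen, included those of Apoltp, a lipid transfer protein gene, and the yolk protein gene Yp3. Apoltp read 11.52, 11.44 and 11.38 in ROW RNAi replicates, against 11.74, 11.84 and 11.74 in the control replicates (−0.32, SE 0.06, adjusted p = 0.10). Yp3 gave −0.30 (SE 0.09, adjusted p = 0.26). The groups of Apoltp and of Yp3 did not overlap, as those of 21.4% of all probe sets. Apoltp passed when only probe sets with a mean above the median were tested (limma adjusted p = 0.025) and with trend and robust variance (0.0037). Fbp2 passed without ROW RNAi replicate 2 (adjusted p = 0.048). The mean level of this list was 5.68, 5.72 and 5.80 in ROW RNAi replicates, against 5.75, 5.79 and 5.73 in the control replicates.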

How the data were processed

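The authors deposited 1 log2 value for each probe set on each array, computed with RMA per the submitters' processing notes. This method subtracts background, forces a common distribution on the arrays and combines the probes of a set. Changes common to most transcripts are thereby hidden, and folds of dim genes can be compressed. Its version and the genome build are not given in the sources used here, and no coordinates are printed. RNA was amplified from 25 ng per sample, per the labels' protocols.

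The 183 control probe sets were left out and 18769 tested. Symbols came from the platform annotation, brought up to date through gene IDs of the reference table (13544 of 13647 probe sets with 1 symbol matched; 402 had several symbols and 4720 none). Groups were compared with limma 3.58.1 (lmFit, eBayes, two-sided) in R 4.3.3, with Benjamini-Hochberg adjustment over all tested probe sets and a threshold of 0.05. Tables and figures were made with pandas 2.3.3 and matplotlib 3.10.9 in Python 3.11.15. The fit was tested on simulated data for the comparison of ROW RNAi with control over 18769 probe sets. It recovered 78% of those given a log2 change of 1 and 54% of those given 0.585, and called 11 unchanged ones. The simulated noise was independent between probe sets, while the first principal component of the real arrays held 66.9% of the variance. Recovery in the real data can therefore differ.

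The members and lists were chosen with earlier results of these data known. Named were the members, row, up to 4 genes of each list past the threshold (otherwise the 2 largest changes above background), the 5 genes most like Nplp1 and the nearest measured neighbours. In a list, the brightest probe set stood for a gene. Also tried were median centring, cyclic loess, 2 filters that drop dim probe sets, trend and robust or unmoderated variance, weights for arrays, averaging the probe sets of each gene, the replicate number as a block and leaving out each array. The number of arrays limits the precision.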

Additional observations from a re-analysis of the deposited data

How the results depend on the processing

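The log2 differences of Nplp1, Nplp2, Nplp3 and Nplp4 kept their sign and moved by less than the spread between replicates under every alternative that could be fitted, with ranges of −1.27 to −1.08, 0.15 to 0.30, 0.46 to 0.82 and 0.08 to 0.27. The filter at the median mean removed Nplp3 and Nplp4, and the background filter removed Nplp3. The count of changed probe sets (218; 76 higher, 142 lower) was less stable. It was 107 (33 and 74) with median centring, 575 (207 and 368) above the median mean, where fewer were tested, 558 (222 and 336) with trend and robust variance and 122 (43 and 79) with an unmoderated test. Leaving out 1 array gave 24 to 517 (5 to 259 higher, 19 to 258 lower), with 517 without ROW RNAi replicate 2, 64 and 53 without ROW RNAi replicates 1 and 3, and 26, 24 and 27 without control replicates 1, 2 and 3. Genes past the threshold in the 6 lists numbered 0, and 1 with cyclic loess, 2 above the median mean, 1 above background, 2 with trend and robust variance and 0 to 5 with 1 array left out. In the marker lists, 1 hemocyte gene passed (0 to 2 under the alternatives) and 0 fat body genes (0 to 1). Neuron and cuticle markers past the threshold numbered 0 under every alternative. The cause was not tested, except that the filters leave fewer probe sets.

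A replicate block in limma left 0 probe sets past the threshold (0 higher, 0 lower). At an unadjusted p under 0.05 there were 2924 with the block and 2590 without it. The brightest row probe set stood at −1.58 with an adjusted p of 0.056 in the block fit. Arrays with the same number had deviations that correlated at 0.48, 0.55 and −0.04, and the labels name no shared culture or day, so the numbers were not taken to pair the samples. Small differences that changed sign were those of uzip with median centring (−0.014) and of gsb-n and CG13062 with cyclic loess (0.019 and 0.054). With 1 array left out, gsb-n ranged over −0.13 to 0.10, CG13062 over −0.13 to 0.10, svr over −0.15 to 0.022, Pkg21D over −0.058 to 0.32 and SNCF over −0.36 to 0.073. Signals near background limit what can be said of Nplp3 and Nplp4.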
